A study of Mus musculus with 2 samples.

Results

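A set of 10 genes that regulate fat cell formation or build, fill and empty lipid droplets was followed in mouse embryonic fibroblasts (MEFs), the connective tissue cells that grow out of dissociated embryos. They were taken by gene symbol from the deposited count table, which held all 10 of 10 among its 17260 genes. They are the C/EBP transcription factors Cebpa, Cebpb and Cebpd, the fatty acid uptake and binding genes Fabp4, Lpl and Cd36, the droplet coat genes Plin2 and Plin4, and the lipase genes Lipe and Pnpla2. The library labelled Ahi1-/- came from Ahi1-/- C57BL/6 MEFs and the other from WT C57BL/6 MEFs, with 1 library of each. Both cultures were prepared from day 13.5 embryos and grown in DMEM with 10% serum. No agent that induces fat cells is named in the labels. The sources used here do not give the targeted part of Ahi1, the passage, or how many embryos went into a culture.

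A fibroblast that becomes a fat cell passes through a chain of transcription factors. C/EBP beta and C/EBP delta come first, and PPAR gamma and C/EBP alpha follow and keep each other and the fat cell genes active. Triglyceride is stored in droplets coated by perilipins, is built from fatty acids that lipoprotein lipase releases and CD36 and binding proteins carry, and is broken down in sequence by ATGL (Pnpla2), hormone-sensitive lipase (Lipe) and monoglyceride lipase (Mgll). Fibroblasts outside this programme also express several of these genes.

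The libraries held 20820756 expected counts (labelled Ahi1-/-) and 19067504 (WT). With 1 library per genotype there is no replicate check, no test and no p-value. All 95% intervals are exact (Clopper-Pearson), cover counting error only, and compare these libraries and not the genotypes. Ahi1 itself had 370 counts in the library labelled Ahi1-/- and 410 in WT, a log2 ratio of -0.16 (-0.37 to 0.05), with an interval that held 0. The level of the targeted gene is thus no check on the labels here. A count over the whole gene does not show which part of it was read, and why the 2 counts were close was not tested. Every direction below rests on the labels and on reading the column heads EXP and CON as Ahi1-/- and WT. Genes of fibroblasts were abundant: the library labelled Ahi1-/- had 6825 TPM of Col1a1, 4099 of Col1a2 and 4710 of Vim, and WT had 1668, 605 and 4546 TPM. Of 12 fibroblast markers, all with at least 50 counts in the library that had more, 8 were at least 2-fold higher and 1 lower. Among all genes with that minimum 16.0% were as much higher and 10.3% as much lower. Furthest apart were Thy1 (1338 TPM in the library labelled Ahi1-/- and 16.3 in WT) and Lum (177 and 3.74 TPM). The lower one was S100a4 (1686 and 3460 TPM, log2 -1.08, but -0.83 with the median of its chromosome subtracted). The summed level of the 12 markers was 23298 TPM in the library labelled Ahi1-/- and 11656 TPM in WT.

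Starts of genes that differed most and of their close relatives are shown first, because they are the regulatory sequences of the genes the results turn on. RefSeq promoter sequences (build GRCm38.p6, 250 bases before to 50 bases after the start) were matched by symbol for 7 of the 10 genes, with 2 starts for Lipe, giving 8 sequences. Cebpd, Fabp4 and Lpl had none matched. Capitals mark, on either strand, the TATA box TATAAA, the C/EBP half-site TTGCG, the nuclear receptor half-site AGGTCA, the E-box CACGTG and the cyclic AMP response half-site TGACG. The first 2 sequences belong to Cebpa, which was higher in the library labelled Ahi1-/-, and to its abundant relative Cebpb. The next 2 belong to Plin4, which was lower, and to Plin2, and the last 2 to the starts of Lipe, which was lower.
Cebpa (chr7:35119043-35119342, plus strand): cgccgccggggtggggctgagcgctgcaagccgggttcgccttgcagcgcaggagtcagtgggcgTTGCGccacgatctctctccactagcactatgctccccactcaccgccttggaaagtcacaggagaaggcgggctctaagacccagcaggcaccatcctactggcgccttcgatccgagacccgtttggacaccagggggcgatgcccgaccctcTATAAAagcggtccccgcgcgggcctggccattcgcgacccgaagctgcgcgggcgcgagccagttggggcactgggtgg
Cebpb (chr2:167688665-167688964, plus strand): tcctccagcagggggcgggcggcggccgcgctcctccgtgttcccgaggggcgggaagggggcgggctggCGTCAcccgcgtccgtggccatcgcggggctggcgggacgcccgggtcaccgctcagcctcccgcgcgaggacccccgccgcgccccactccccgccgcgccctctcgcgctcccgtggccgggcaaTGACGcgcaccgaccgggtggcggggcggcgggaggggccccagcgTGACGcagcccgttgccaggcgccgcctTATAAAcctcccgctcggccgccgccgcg
Plin4 (chr17:56109733-56110032, minus strand): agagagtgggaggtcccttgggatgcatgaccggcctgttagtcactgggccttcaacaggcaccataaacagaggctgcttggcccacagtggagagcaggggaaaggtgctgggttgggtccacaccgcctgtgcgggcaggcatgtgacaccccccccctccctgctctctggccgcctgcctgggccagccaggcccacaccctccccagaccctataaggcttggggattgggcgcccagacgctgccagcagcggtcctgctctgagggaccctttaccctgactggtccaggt
Plin2 (chr4:86670010-86670309, minus strand): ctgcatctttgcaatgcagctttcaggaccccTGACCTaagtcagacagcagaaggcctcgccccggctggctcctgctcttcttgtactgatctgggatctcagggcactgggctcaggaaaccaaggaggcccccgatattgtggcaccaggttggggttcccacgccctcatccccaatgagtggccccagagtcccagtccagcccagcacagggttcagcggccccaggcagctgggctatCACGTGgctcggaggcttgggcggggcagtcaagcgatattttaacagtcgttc
Lipe, upstream start (chr7:25395938-25396237, minus strand): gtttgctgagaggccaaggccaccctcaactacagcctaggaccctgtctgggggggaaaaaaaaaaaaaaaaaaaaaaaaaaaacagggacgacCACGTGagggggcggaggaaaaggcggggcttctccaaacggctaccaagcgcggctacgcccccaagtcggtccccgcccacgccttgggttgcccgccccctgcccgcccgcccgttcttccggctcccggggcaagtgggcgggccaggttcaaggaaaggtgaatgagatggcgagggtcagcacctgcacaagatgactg
Lipe, downstream start (chr7:25390063-25390362, minus strand): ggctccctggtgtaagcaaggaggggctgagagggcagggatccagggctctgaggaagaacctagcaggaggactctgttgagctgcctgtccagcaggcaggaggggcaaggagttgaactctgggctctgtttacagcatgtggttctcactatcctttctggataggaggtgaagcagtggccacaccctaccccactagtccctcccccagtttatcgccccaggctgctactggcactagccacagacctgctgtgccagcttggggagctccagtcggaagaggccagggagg

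The Cebpa sequence held a TATA box starting 30 bases before the annotated start and 1 C/EBP half-site starting 185 bases before it. Cebpb held 3 cyclic AMP response half-sites, starting 180, 53 and 7 bases upstream, and a TATA box just after the annotated start. Plin2 held 1 nuclear receptor half-site, 218 bases upstream, and an E-box 4 bases upstream, whereas the Plin4 window held none of the marked motifs. The upstream Lipe window held an E-box 155 bases before the start, and the downstream one none of the marked motifs. Among 32851 RefSeq promoters of the same length, 13.6% held TATAAA, 17.4% TTGCG, 16.3% AGGTCA, 7.15% CACGTG and 20.8% TGACG. The C/EBP palindrome TTGCGCAA, which contains the half-site, and the direct repeat AGGTCANAGGTCA, which contains the nuclear receptor half-site, were found in none of the 8 sequences and in 0.183% and 0.0396% of all promoters. A match describes letters only, and a missing match says only that these letters are not in the window.

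In the library labelled Ahi1-/-, Fabp4 and Cebpa were higher than in WT by 2-fold or more, Plin4 and Lipe were lower by as much, and Cebpb, Cebpd, Lpl, Plin2 and Pnpla2 lay within 2-fold. Genes count as higher or lower from here on at 2-fold or more, given a minimum of 50 counts in whichever library had more. Cd36 did not reach that minimum, which left 9 genes. Among all 12075 genes that reached it, 16.0% were as much higher and 10.3% as much lower. With 2 of 9 in each direction, nothing about the set as a whole is read from these counts. The median log2 ratio of the 10 genes was 0.27, against -0.01 for all 14485 genes with at least 10 counts over both libraries. Over the 9 genes with the 50-count minimum it was 0.07 (the value of Plin2), against -0.04 for all genes with that minimum. The members ran from -3.23 to 2.53, and the intervals of 7 excluded 0. Single genes and their order within each family are described below.

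**Figure D1:**
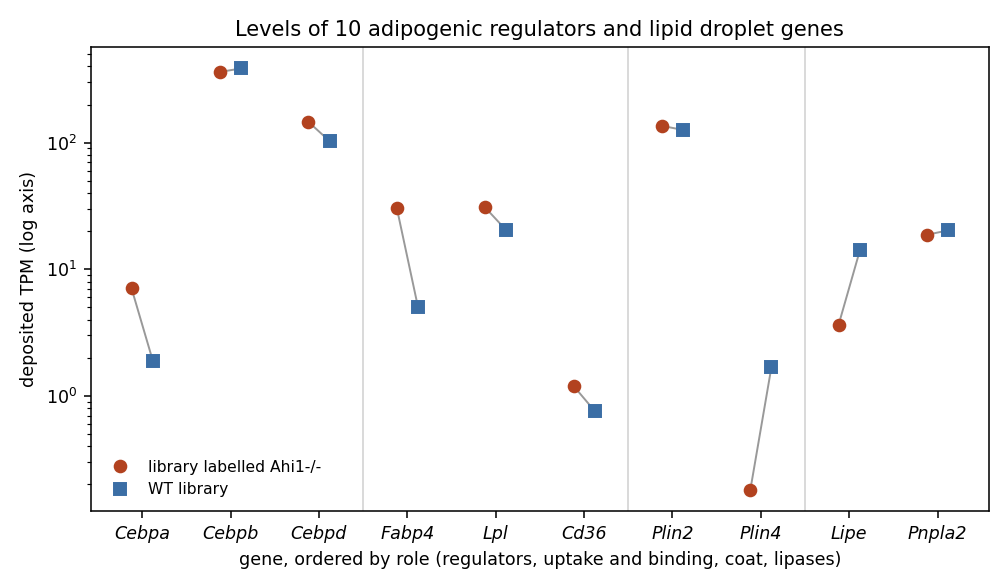
Deposited TPM (log axis) of the 10 genes in the library labelled Ahi1-/- (circles) and the WT library (squares), 1 library each. Cebpb, Cebpd and Plin2 lie above 100 TPM in both libraries, and Fabp4, Cebpa, Plin4 and Lipe show the widest gaps.

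Cebpb, which encodes the early factor C/EBP beta, was the most abundant of the 10 genes per length. It had 362 TPM (4861 counts) in the library labelled Ahi1-/- and 385 TPM (5303 counts) in WT, and ranked 407th and 354th of 17260 genes by TPM. Its log2 ratio was -0.14 (-0.19 to -0.08), a 1.10-fold lower level, and the log2 ratio was 0.0041 once the median of its chromosome was subtracted. Cebpd, the other early factor, had 146 TPM (2955 counts) in the library labelled Ahi1-/- and 103 TPM (2130 counts) in WT. It was 1.37-fold higher (log2 0.46, 0.38 to 0.54), short of 2-fold but outside counting error.

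Cebpa, which encodes the late factor C/EBP alpha, was scarce in WT and less so in the library labelled Ahi1-/-. It had 7.06 TPM (167 counts) in the library labelled Ahi1-/- and 1.90 TPM (46 counts) in WT. The difference was 3.60-fold (log2 1.85, 1.37 to 2.35), and 9.49% of all genes with the minimum had a larger log2 ratio. In the authors' second table, of FPKM values, Cebpa stood at 3.10 in the library labelled Ahi1-/- and 0.93 in WT. Pparg, its partner in fat cells and not one of the 10, went the other way, with 2.19 TPM (39 counts) in the library labelled Ahi1-/- and 6.02 TPM (105 counts) in WT. Its log2 ratio was -1.44 (-2.01 to -0.90), a 2.72-fold lower level. Cebpa thus exceeded Pparg 3.22 times per length in the library labelled Ahi1-/-, whereas in WT Pparg exceeded Cebpa 3.17 times.

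Within the C/EBP family, Cebpb held most of the transcripts in both libraries. Over Cebpa, Cebpb, Cebpd, Cebpe and Cebpg, the summed level was 545 TPM in the library labelled Ahi1-/- and 529 TPM in WT. Cebpb took 66.4% and 72.8% of it in these libraries, Cebpd 26.8% and 19.4%, and Cebpa 1.30% and 0.359%. Cebpg, which dimerises with other family members, had 30.0 TPM in the library labelled Ahi1-/- and 39.0 TPM in WT, and Cebpe had 0 counts and 2. Ratios of counts between genes of the same library do not depend on how libraries are scaled. On that measure Cebpa was 3.96 times (2.83 to 5.63) as frequent relative to Cebpb in the library labelled Ahi1-/- as in WT, and Cebpd 1.51 times (1.41 to 1.62). These pairs of genes, and those below, were chosen after the values were seen.

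Fabp4, a fatty acid binding protein used as a marker of fat cell differentiation, differed most on the higher side. It had 30.7 TPM (175 counts) in the library labelled Ahi1-/- and 5.06 TPM (30 counts) in WT, and ranked 5158th and 9933rd by TPM. It was 5.78-fold higher (log2 2.53, 1.97 to 3.14), and 7.11% of genes with the minimum had a larger ratio. The deposited FPKM values were 13.5 and 2.49. Its interval overlapped that of Cebpa, and the count ratio of Fabp4 to Cebpa differed 1.60 times between the libraries (0.941 to 2.77), so the order of these genes is not settled. Fabp5, the neighbouring paralogue, had 238 TPM in the library labelled Ahi1-/- and 314 TPM in WT (log2 -0.45, -0.53 to -0.36). Fabp5 therefore exceeded Fabp4 7.74 times per length in the library labelled Ahi1-/- and 62.0 times in WT.

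Lpl, the secreted enzyme that frees fatty acids from circulating triglyceride, had 30.8 TPM (1126 counts) in the library labelled Ahi1-/- and 20.3 TPM (761 counts) in WT. It was 1.47-fold higher (log2 0.55, 0.42 to 0.69). It lies on chromosome 8, whose 652 genes with the minimum had a median log2 ratio of -0.40, and it stood 0.95 above that median. Fabp4 and Lpl were at nearly equal levels per length in the library labelled Ahi1-/- (Lpl 1.00 times Fabp4), while in WT Lpl exceeded Fabp4 4.01 times. Cd36, the membrane carrier and scavenger receptor for fatty acids, was the scarcest of the 3 uptake genes. It had 1.2 TPM (30 counts) in the library labelled Ahi1-/- and 0.76 TPM (19 counts) in WT, and its log2 ratio of 0.65 had an interval that held 0 (-0.23 to 1.56). A difference in Cd36 was not detectable at this depth.

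**Figure D2:**
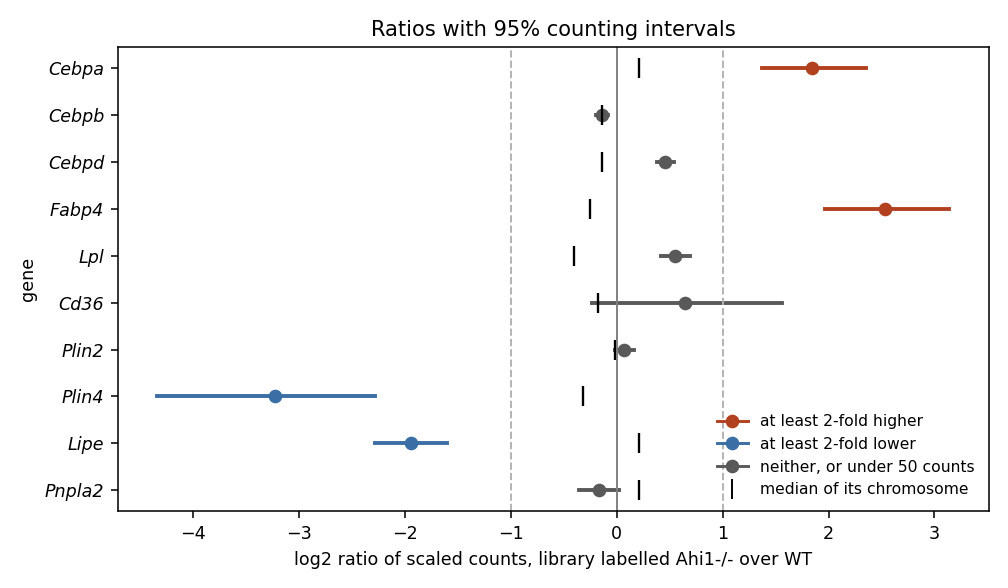
Log2 ratio of scaled counts, library labelled Ahi1-/- over WT, for each of the 10 genes (points) with 95% counting intervals (lines). Dashed lines mark 2-fold and short black bars the median of the gene's chromosome; Fabp4 and Cebpa lie right of the dashed lines and Plin4 and Lipe left of them.

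The perilipin genes split between an abundant coat gene that was nearly level and a scarce one that was much lower. Plin2, the coat protein of droplets in most cell types, had 136 TPM (2220 counts) in the library labelled Ahi1-/- and 126 TPM (2094 counts) in WT. Its log2 ratio was 0.07 (-0.02 to 0.16), with an interval that held 0, and -0.04 when libraries were scaled by total counts. Plin4, a perilipin of fat and muscle cells, had 0.18 TPM (10 counts) in the library labelled Ahi1-/- and 1.70 TPM (93 counts) in WT. It was 9.38-fold lower (log2 -3.23, -4.34 to -2.29), and 1.00% of genes with the minimum had a smaller ratio. The median of its chromosome 17 was -0.32, and the deposited FPKM values were 0.08 and 0.84.

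Plin3, the other widely expressed perilipin, had 66.3 TPM (1280 counts) in the library labelled Ahi1-/- and 90.7 TPM (1793 counts) in WT (log2 -0.50, -0.60 to -0.39). The fat cell perilipin Plin1 had 0 counts and 1, and Plin5, of oxidative tissues, 2 and 1. Plin2 took 67.1% of the summed perilipin TPM in the library labelled Ahi1-/- and 57.6% in WT, Plin3 32.8% and 41.5%, and Plin4 0.0889% and 0.778%. Relative to Plin2, counts of Plin4 were 9.86 times (5.11 to 21.3) less frequent in the library labelled Ahi1-/-.

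The lipase genes differed by step. Pnpla2 (ATGL), which removes the first fatty acid from triglyceride, had 18.7 TPM (443 counts) in the library labelled Ahi1-/- and 20.3 TPM (492 counts) in WT. Its log2 ratio of -0.16 had an interval that held 0 (-0.35 to 0.02). Lipe, hormone-sensitive lipase, which acts on the diglyceride left by ATGL, had 3.66 TPM (94 counts) in the library labelled Ahi1-/- and 14.1 TPM (357 counts) in WT. It was 3.83-fold lower (log2 -1.94, -2.28 to -1.61), and 2.68% of genes with the minimum had a smaller ratio. The deposited FPKM values were 1.61 and 6.92. Lipe, Pnpla2 and Cebpa all lie on chromosome 7, whose median log2 ratio was 0.21.

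Mgll, the lipase of the last step and not one of the 10, had 4.39 TPM (145 counts) in the library labelled Ahi1-/- and 0.66 TPM (19 counts) in WT, 7.56-fold higher (log2 2.92, 2.22 to 3.69). Of the TPM summed over these 3 lipases (26.8 in the library labelled Ahi1-/- and 35.1 in WT), Pnpla2 held 69.9% and 57.9%, Lipe 13.7% and 40.2%, and Mgll 16.4% and 1.88%. Relative to Pnpla2, Lipe counts were 3.42 times (2.62 to 4.49) less frequent in the library labelled Ahi1-/-. Plin4 fell further than Lipe on the same measure, 2.45 times (1.21 to 5.48).

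**Figure D3:**
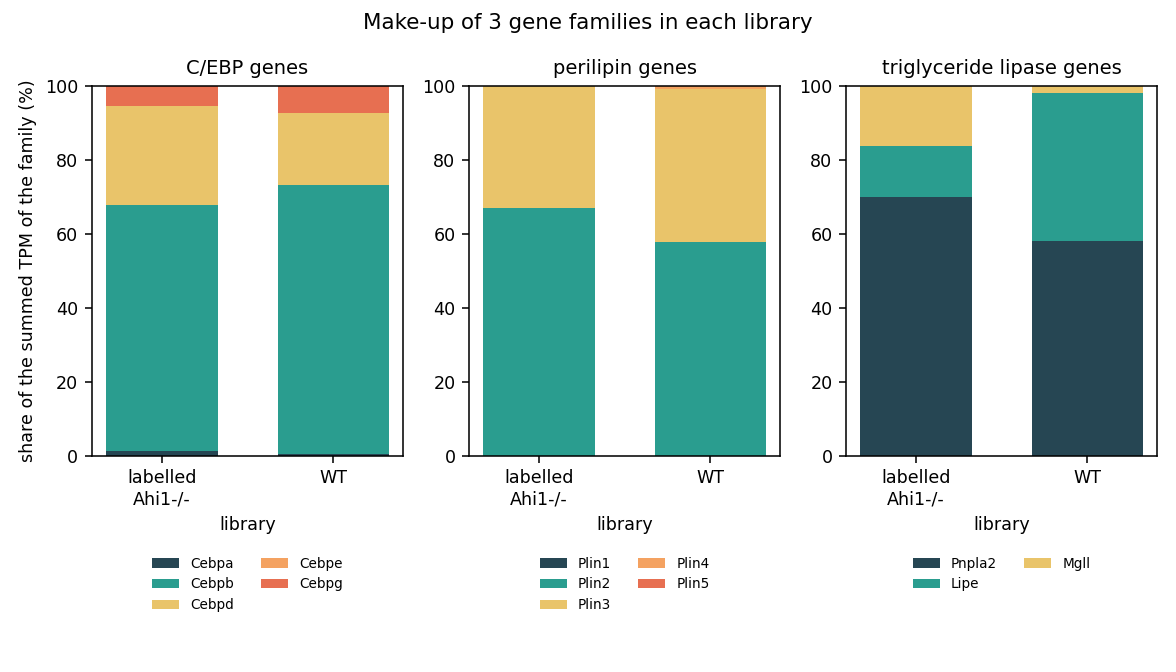
Share of the summed TPM (%, axis from 0 to 100) taken by each gene of the C/EBP, perilipin and triglyceride lipase families, with the library labelled Ahi1-/- left of WT in each panel. Cebpb and Plin2 take the largest shares of their families in both libraries, and the Lipe share is 13.7% in the library labelled Ahi1-/- and 40.2% in WT.

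Mature fat cell markers were scarce in both libraries. Adipoq, which encodes adiponectin, had 1 count in each. Retn, Cfd, Plin1, Cidec and Thrsp each had 0 counts in the library labelled Ahi1-/- and 1 in WT, and a count of 0 allows up to 3 counts (0.150 CPM). Of 20 such markers 17 were in the table, and 7 had at least 10 counts over both libraries. All 7 were below the count minimum for a call, so they could not be called higher or lower. The lack of calls thus does not show that these markers were level. The summed level of the list was 8.04 TPM in the library labelled Ahi1-/- and 7.44 TPM in WT. The markers with the highest TPM were Cox7a1 (13 counts in the library labelled Ahi1-/- and 8 in WT, 4.48 and 2.69 TPM), Car3 (3 and 22 counts) and Slc2a4 (13 and 21 counts), and without Cox7a1 the sums were 3.56 and 4.75 TPM. Adrb3 (16 and 2 counts, log2 2.99, 0.90 to 6.15) and Dio2 (22 and 4, 2.45, 0.89 to 4.44) had intervals above 0. That of Car3 lay below 0 (log2 -2.89, -5.27 to -1.15), and those of the other measured markers held 0. Of 14 markers of preadipocytes and mesenchymal progenitors, 13 were measured. Of these, 6 were higher and 2 lower (median log2 ratio 1.82). Their summed level was 2055 TPM in the library labelled Ahi1-/- and 913 TPM in WT, led by Itgb1 (887 and 414 TPM), F3 (346 and 35.0 TPM) and Pdgfrb (240.0 and 138 TPM). Dlk1, the preadipocyte factor that restrains fat cell formation, was 81.5 TPM in the library labelled Ahi1-/- and 152 TPM in WT (log2 -1.02, -1.12 to -0.91). It was under 2-fold apart with upper-quartile scaling (-0.96), as a TPM ratio (-0.90) and with its chromosome median subtracted (-0.99).

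Other cell types that may be present among MEFs express Fabp4, Lpl, Cd36 or Plin2. As for the progenitor markers, calls are counted over measured markers, but only those with the 50-count minimum could be called. An uncalled marker is thus not shown to be level. Of all genes with that minimum 16.0% were higher and 10.3% lower. Macrophage markers summed to 57.0 TPM in the library labelled Ahi1-/- and 42.3 TPM in WT, with none of the 15 at 0 in either. Of 13 measured, 1 was higher, 1 lower and 9 below 0 (median log2 ratio -0.69). Besides Lyz2, those above 0 included Adgre1 (39 counts in the library labelled Ahi1-/- and 4 in WT, log2 3.27, 1.80 to 5.22) and Itgam (39 and 12, 1.69, 0.72 to 2.76). Both were under the 50-count minimum. Lyz2 gave 34.2 and 10.2 TPM of these sums, Cd14 5.77 and 13.2 and Cd68 5.11 and 4.46, and without Lyz2 the order of the sums reversed (22.9 and 32.1 TPM).

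Endothelial markers summed to 52.5 TPM in the library labelled Ahi1-/- and 40.4 TPM in WT, with 1 of 9 measured higher, 1 lower and a median log2 ratio of -1.03. Flt1 gave 38.2 and 13.9 TPM, Egfl7 11.5 and 22.6 and Erg 1.04 and 0.45, and without Flt1 the order of the sums reversed (14.3 and 26.5 TPM). The defining markers Pecam1 (2 and 7 counts) and Cdh5 (1 and 9 counts) were near 0, and Tie1 and Sox17 were at 0 in the library labelled Ahi1-/-. Platelet lineage markers summed to 51.6 TPM in the library labelled Ahi1-/- and 19.2 TPM in WT, with 1 of 5 measured higher and 0 lower. Ppbp gave 38.8 and 1.55 TPM, Gp1bb 9.80 and 12.1 and Itga2b 1.52 and 2.93, and without Ppbp the order again reversed (12.8 and 17.6 TPM).

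Erythroid markers summed to 25.3 TPM in the library labelled Ahi1-/- and 1835 TPM in WT (9 of 12 measured lower, 0 higher), led by the globin genes Hba-a1 (16.7 and 1106 TPM), Hbb-b1 (1.67 and 367 TPM) and Hbb-bs (2.69 and 187 TPM), whose near-identical copies share reads. The globin gene Hba-a2 was at 0 in the library labelled Ahi1-/- and at 26.0 TPM in WT. Cartilage markers summed to 66.0 and 1147 TPM (12 of 14 lower, 0 higher), led by Col2a1 (35.2 and 851 TPM), Col9a3 (2.72 and 52.6 TPM) and Col9a2 (2.03 and 50.2 TPM). Smooth muscle and pericyte markers summed to 9894 TPM in the library labelled Ahi1-/- and 446 TPM in WT (11 of 12 higher), led by Acta2 (5510 and 321 TPM), Tagln (2158 and 32.5 TPM) and Myl9 (877 and 8.04 TPM). Of 12 skeletal muscle markers 7 were in the table and 4 were measured. Their sums of 93.9 and 5.79 TPM came almost wholly from Acta1 (47.3 and 1.69 TPM) and Des (45.0 and 2.97 TPM), which is in the smooth muscle list as well. Without these genes the sums were 1.67 and 1.13 TPM, with Tnnt3 at 7 and 8 counts.

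The part of these cells in the values of the 10 genes was not tested, and fewer cells of a type cannot be told apart from less RNA per cell.

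The 9 lists of related genes held 159 measured genes outside the 10, meaning at least 10 counts over both libraries. Of the 139 that reached the 50-count minimum, 29 were higher in the library labelled Ahi1-/- (20.9%, against 16.0% of all genes) and 15 lower (10.8%, against 10.3%). Their median log2 ratio was 0.18, against -0.01 for all 14485 measured genes. Genes at 0 in 1 library entered at a floor of 3 counts. For single lists below, calls are counted over measured genes, of which only those with the 50-count minimum could be called.

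Transcription factors around Cebpa and Pparg went both ways. Of 24 measured adipogenic factors 4 were higher and 2 lower (median log2 ratio -0.15). Ebf2, a factor of fat cell precursors, had 75 counts in the library labelled Ahi1-/- and 1 in WT (log2 6.22, 3.69 to 11.54). Klf4, an early inducer of Cebpb, was 4.26-fold higher (1795 and 418 counts), and Prdm16, a factor of brown and beige fat, was 4.31-fold lower (165 and 705 counts). Of 24 genes listed as restrainers of fat cell formation 7 were higher and 3 lower (median 0.27). Whether each of them, Id2 included, acts as a restrainer in these cells was not tested. Gata3 was 5.57-fold higher (90 and 16 counts), Hes1 4.39-fold higher (1133 and 256) and Id2 4.56-fold lower (366 and 1655). Of 4 measured C/EBP relatives and partners outside the 10, 1 was higher and 0 lower (median -0.11). That gene, Ddit3 (CHOP), whose protein blocks C/EBP binding to DNA, was 2.10-fold higher (1221 and 575 counts), but under 2-fold with total counts (0.96) or its chromosome median subtracted (0.92). Ddit3 is also 1 of the 7 higher genes of the restrainer list, and it overlaps Mars1 and Mbd6 in the annotation.

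The list of inducers of Cebpb and Cebpd and genes of the acute phase, many of them known C/EBP targets, held calls in both directions. Of 20 measured genes 7 were higher and 4 lower (median log2 ratio 0.81). The cytokine genes Il6 (382 and 146 counts, log2 1.37, 1.10 to 1.66) and Lif (596 and 170, 1.80, 1.55 to 2.05), the receptor gene Osmr (6406 and 2685, 1.24, 1.18 to 1.31) and Stat3 (5361 and 2558, 1.05, 0.99 to 1.12) were higher, although Stat3 was under 2-fold with total counts (0.94) or its chromosome median subtracted (0.93). The acute phase genes differed among themselves. Lower were Saa3 (4175 and 12321, -1.57, -1.63 to -1.52), Hp (279 and 1462, -2.40, -2.59 to -2.22) and Cp (1083 and 8842, -3.04, -3.13 to -2.95). Lcn2 was lower as well (355 and 1134, -1.69, -1.86 to -1.52), while Saa1 (202 and 44, 2.19, 1.71 to 2.69) and Serpina3n (83 and 6, 13.7-fold) were higher. Saa and Serpina3 genes have close paralogues that may share reads. In these lists of counts the first value is that of the library labelled Ahi1-/-.

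Genes that act beside the droplet coat and the lipases were mostly within 2-fold. Of 13 measured droplet genes other than Plin2 and Plin4, 2 were higher and 0 lower (median 0.35). Bscl2 (seipin), which shapes new droplets, was 2.92-fold higher (510 and 173 counts) and overlaps Gng3 in the annotation, and Mettl7a1 was 2.51-fold higher (208 and 82). For lipolysis, 1 of 17 others was higher and 1 lower (median 0.18). Adrb1, a beta-adrenergic receptor, was 11.8-fold lower (9 and 105 counts), and Mgll was the higher one. Abhd5, the activator of ATGL, had 31.0 TPM in the library labelled Ahi1-/- and 22.6 TPM in WT (log2 0.41, 0.26 to 0.56). G0s2, the inhibitor of ATGL, had 32 counts in the library labelled Ahi1-/- and 0 in WT, below the 50-count minimum.

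For triglyceride synthesis, 2 of 18 genes were higher and 1 lower (median 0.04, and -0.079 with libraries scaled by total counts). Mogat2, a monoacylglycerol acyltransferase of the gut, was 14.0-fold higher (141 and 10 counts), the lipin gene Lpin3 5.92-fold higher (251 and 42) and Agpat5 2.16-fold lower (549 and 1175; log2 -0.71 with its chromosome median subtracted). The final enzymes Dgat1 (log2 0.22, with an interval that held 0) and Dgat2 (-0.93, -1.15 to -0.71) were not called, but Dgat2 passed 2-fold with total counts (-1.05) or its chromosome median subtracted (-1.14). With total counts 3 genes of the list were lower.

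Around Lpl, Cd36 and Fabp4, 4 of 23 other genes were higher and 0 lower (median log2 ratio 0.30). Fabp3, the heart form of the binding protein, was 12.8-fold higher (29.2 TPM in the library labelled Ahi1-/- and 2.24 in WT) and overlaps Zcchc17 in the annotation. Cav1, the coat protein of caveolae, was 4.57-fold higher (14978 and 3248 counts) and the lipoprotein receptor gene Lrp1 2.61-fold higher (38089 and 14471). Angptl4, which inhibits lipoprotein lipase, had 65.3 TPM in the library labelled Ahi1-/- and 35.9 TPM in WT (log2 0.81, 0.67 to 0.96, and 1.14 with its chromosome median subtracted), and Lmf1, which folds the enzyme, 33.0 and 21.6 TPM (log2 0.56, 0.37 to 0.76). Gpihbp1, which anchors the enzyme on capillary cells, had 0 counts and 1. Of 24 PPAR-responsive and fatty acid oxidation genes 2 were higher and 4 lower (median -0.26), and 2 were lower with chromosome medians subtracted, where Acadm (-0.99) and Eci1 (-0.87) came under 2-fold. Ucp2, a mitochondrial carrier, was 52.9-fold lower (132 and 6918 counts), while Ehhadh was 4.88-fold higher (69 and 14) and Acot1 was higher too (191 and 63, log2 1.59).

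**Figure D4:**
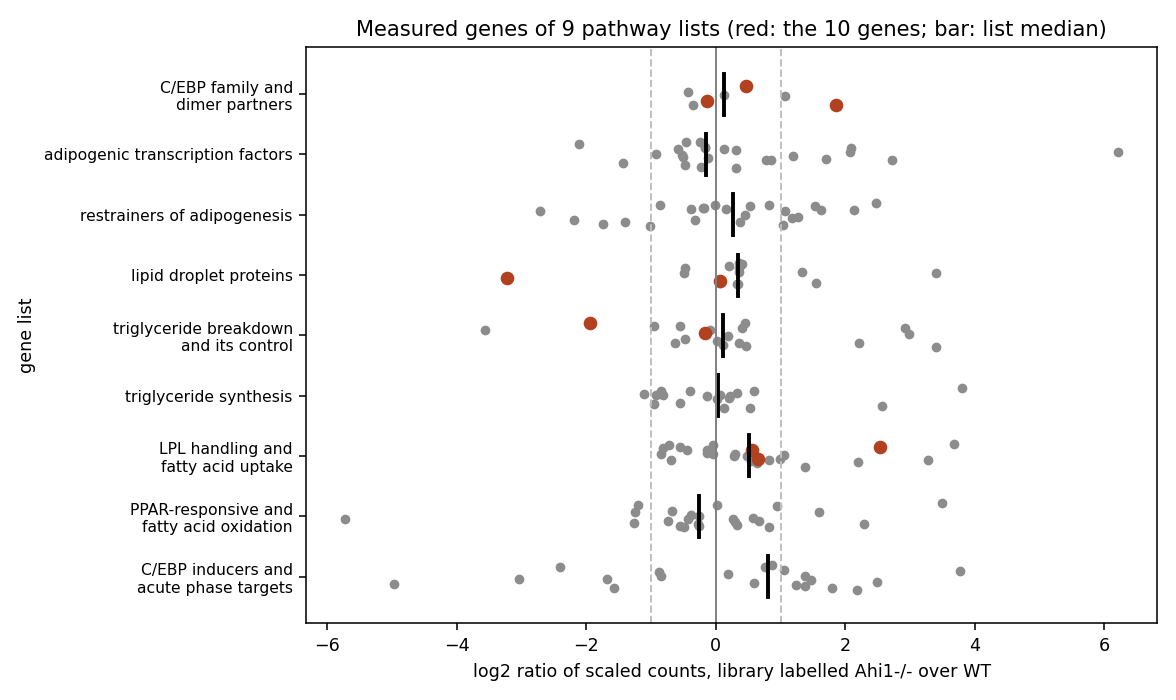
Log2 ratios of scaled counts, library labelled Ahi1-/- over WT, of the measured genes (at least 10 counts over both libraries) in 9 lists; red points are the 10 genes, grey points the others, black bars the list medians and dashed lines 2-fold. List medians lie between -0.26 and 0.81, and most points lie between the dashed lines.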

How the data were processed

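RNA from 1 MEF culture per genotype (1 ug total RNA each, per the labels' protocols) was sequenced with DNBSEQ. The authors deposited expected counts per gene, 64.4% (library labelled Ahi1-/-) and 65.1% (WT) of them whole as written, and TPM values in the same table. A second table deposited by the authors holds FPKM values for 3872 genes. None of its 3578 genes above 0 in both columns was under 2-fold apart, so it adds values only for genes already selected by size, among them 4 of the 10. Build mm8 and the tools RSEM 1.2.12, Bowtie2 2.2.5 and HISAT2 2.0.4 come from the submitters' processing notes, without roles. The annotation, filters and use of strand were not given in the sources used here. All 6 value columns were used. Overlapping genes, which include Cebpd with Spidr, Plin4 with Hdgfl2, Plin2 with Gm12551 and Lipe with 4732471J01Rik, cannot be separated without strand.

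Expected counts were rounded and library sizes scaled with TMM (edgeR 4.0.16, R 4.3.3; log2 ratio of effective sizes 0.01, library labelled Ahi1-/- over WT). Python 3.11.15, numpy 2.4.6, pandas 2.3.3, scipy 1.17.1 and matplotlib 3.10.9 did the rest. Ratios between genes are conditional odds ratios with exact intervals. The log2 ratios, calls and counting intervals were tested on data simulated with counting error only. Of 17260 gene identifiers 17206 matched RefSeq GRCm38.p6, used for chromosomes, overlaps and neighbours; because the build differs from mm8, its coordinates are printed with promoter sequences only.

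The 10 genes and all lists were chosen with earlier results of these data known. From each pathway list the rule named up to 3 other genes, those furthest from 0 in log2 ratio among the ones called higher or lower, from each marker list the 3 with the highest TPM and defining markers at 0, and Pparg and Ahi1. Genes outside it (Cebpe, Cebpg, Plin1, Plin3, Plin5, Fabp5, Dlk1, Adipoq, Retn, Cfd, Cidec, Thrsp, Adrb3, Dio2, Thy1, Lum, S100a4, Adgre1, Itgam, Pecam1, Cdh5, Tie1, Sox17, Il6, Lif, Osmr, Stat3, Saa3, Lcn2, Abhd5, G0s2, Dgat1, Dgat2, Saa1, Acadm, Eci1, Angptl4, Lmf1, Gpihbp1 and those under other observations) were chosen after their values were seen. Alternatives covered scaling (DESeq2 1.42.0 size factors, total counts, upper quartile), TPM and FPKM ratios, unrounded counts, chromosome medians, count minimums and fold limits.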

Additional observations from a re-analysis of the deposited data

How the results depend on the processing

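Fabp4, Cebpa, Plin4 and Lipe kept their direction and stayed at least 2-fold apart under all 6 alternatives of scaling, rounding, TPM ratio and chromosome median, with log2 ratios of 2.42 to 2.79, 1.64 to 1.90, -3.34 to -2.91 and -2.15 to -1.89. The FPKM ratio is not counted, because that table holds no gene under 2-fold. The other 6 genes were within 2-fold under these. Scaling by total counts lowered the median of all genes by 0.11 (log2) and gave -0.25 for Cebpb, 0.35 for Cebpd and -0.043 for Plin2. Subtracting chromosome medians gave 0.0041 for Cebpb, 0.60 for Cebpd, 0.95 for Lpl and -0.38 for Pnpla2. With a 200-count minimum 0 of the 10 genes were higher and 1 lower, and at 4-fold 1 and 1. Among all genes, 3111 were higher and 2063 lower with no minimum, 1266 higher with 200 counts, 1078 and 299 at 4-fold, and 2606 lower at 1.5-fold. With scaled counts not divided by length, the shares in the library labelled Ahi1-/- and WT were 52.5% and 57.8% for Cebpb, 31.9% and 23.2% for Cebpd, 63.2% and 52.6% for Plin2, 36.4% and 45.0% for Plin3, and 0.285% and 2.34% for Plin4. In the library labelled Ahi1-/- they were 1.80% for Cebpa, 64.96% for Pnpla2 and 21.3% for Mgll. Shares from FPKM were not run because the second table lacks most family members. Medians of whole lists changed sign for lipolysis (0.11, against -0.0088 with total counts and -0.076 over genes with at least 100 counts), triglyceride synthesis (0.04, against -0.079 with total counts) and endothelial markers (-1.03, against 0.17 over genes with at least 100 counts). Cd36 rests on 30 and 19 counts and Plin4 on 10 and 93, so counting error alone leaves their ratios wide. Of 98 genes of the lists outside the 10 that were at least 2-fold apart, 13 came under 2-fold with some scaling, the TPM ratio or the chromosome median, and 0 reversed. No leave-one-out or other replicate check could be run. No paired analysis was possible because each group has 1 library.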

Other observations

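The nearest genes on the chromosomes of the 10 genes were looked up in RefSeq order, 2 measured genes on each side, 40 in all. By the same rule on counts and fold, 37 of them could be called. Of these, 7 were higher and 1 was lower in the library labelled Ahi1-/- than in WT. Among all genes with the 50-count minimum 16.0% were higher and 10.3% lower, and nothing about the neighbours as a group is read from these counts. Beside Cebpa, Cebpg had a log2 ratio of -0.43 (-0.53 to -0.32) and Lrp3, a receptor of the LDL receptor family, one of 6.07 (4.70 to 7.96; 272 counts in the library labelled Ahi1-/- and 4 in WT). Around Fabp4, the neighbours Fabp5 (-0.45), Impa1 (-0.32) and Zfand1 (-0.56) lay below 0 and Pag1 (0.69) above it, all within 2-fold. Beside Plin4, whose ratio was -3.23, Sema6b had 40 counts in the library labelled Ahi1-/- and 89 in WT (log2 -1.17, -1.74 to -0.61), Lrg1 had 6 and 17, and Ubxn6 (-0.57) and Hdgfl2 (-0.56) were within 2-fold.

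Near Lipe, whose log2 ratio was -1.94, Pafah1b3 (-0.90), Dmac2 (-0.63) and Ceacam1 (1.15, 0.87 to 1.43) all had higher ratios. Beside Lpl, Csgalnact1, which starts chondroitin sulphate chains, had a log2 ratio of 4.46 (4.15 to 4.79; 1887 counts in the library labelled Ahi1-/- and 85 in WT). The neighbours of Cd36 were all above 0, namely Gnai1, a G protein subunit (6.16, 5.18 to 7.38), the growth factor gene Hgf (3.86, 3.15 to 4.66), Sema3c (1.46, 1.25 to 1.66) and Magi2 (0.80, 0.39 to 1.22). All 4 neighbours of Cebpd lay below 0 (-0.11 to -0.83) while Cebpd lay above it (0.46). The cause of these patterns was not tested.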
